A study of Mus musculus with 2 samples.

Results

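The genes of the major histocompatibility complex (MHC) class I and class II antigen presentation systems were examined in CD45+ cells of non-ablated MC38 tumors. The members were all genes whose symbol starts with H2-, together with B2m, Cd74, Ciita, Nlrc5, Tap1, Tap2, Tapbp, Psmb8 and Psmb9, which gave 43 of the 32285 genes in the deposited tables. MC38, a mouse colon carcinoma line, was grown under the skin of both flanks of C57BL/6 mice, which were male and 6 to 8 weeks old, and the right tumor was treated by microwave ablation (MWA) at a volume of about 300 mm3. For the MWA group the labels name no further treatment, while the study describes its MWA mice as also receiving an isotype control antibody. In the MWA plus TIGIT group an antibody against the inhibitory receptor TIGIT was injected into the abdomen, 3 times per the labels, at intervals of 3 days from day 1 after MWA. Immune cells of the left tumor were collected on day 8, and their RNA was sequenced cell by cell from droplets, with 1 library for each group. The sources used here do not say how many mice went into a library, no untreated tumor was analysed here, and with 1 library per group no difference between the groups could be tested. Every interval below covers counting error only and not the variation between mice.

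The libraries held 10217 and 10190 cell barcodes with 66152465 and 78751205 unique molecular identifiers (UMIs, each a captured RNA molecule), of which 9231 and 9127 cells were kept, and here as below the MWA value comes before the MWA plus TIGIT value. The libraries shared 28 barcodes among the kept cells. Cells were clustered without the members among the features and named from marker genes, so that 8655 and 8544 cells received a class. The largest class was that of the tumor-associated macrophage (TAM)-like cells, with 3727 and 3835 cells, and each class had UMIs of every gene of its own marker list in both libraries. Plasmacytoid dendritic cell-like cells, with 6 and 2 cells, were too few to describe. Levels are UMIs of a gene per 1000000 UMIs of the class (CPM). A member counted as measured in a class when it reached 50 CPM in 1 library and 20 UMIs over both, which 28 of the 43 did in at least 1 class. Levels are compared for the same gene between cells, and not between genes, since the libraries read only 3′ ends.

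MHC class I molecules pair a heavy chain with the invariant light chain B2m and display peptides from inside the cell to CD8+ T cells, after immunoproteasome subunits such as Psmb8 and Psmb9 have cut the peptides and Tap1, Tap2 and Tapbp have delivered and loaded them. MHC class II molecules are made of an alpha and a beta chain, are guarded by the invariant chain Cd74 until H2-DM exchanges it for peptide, and are shown to CD4+ T cells by dendritic cells, B cells and activated macrophages. Ciita is the master co-activator of the class II genes and Nlrc5 serves class I genes in the same way. Neither binds DNA itself, and both are recruited to a conserved promoter module that ends in the Y box, the site of the factor NF-Y.

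The Y box is shown in the promoters of 5 members whose levels by cell class are described below, with B2m beside them for class I. Each line gives the RefSeq sequence (GRCm38.p6) of 120 bases, from 150 to 31 bases before the transcription start, 5′ to 3′ on the strand of the gene. Capitals mark GATTGG, the letters searched for the Y box, and in B2m also a match to GAAANNGAA, the core letters of an interferon response element.
H2-Aa (chr17:34287854-34287973, minus strand): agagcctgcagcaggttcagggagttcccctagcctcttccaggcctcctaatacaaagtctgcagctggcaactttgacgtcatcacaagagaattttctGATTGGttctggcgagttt
H2-Eb1 (chr17:34305717-34305836, plus strand): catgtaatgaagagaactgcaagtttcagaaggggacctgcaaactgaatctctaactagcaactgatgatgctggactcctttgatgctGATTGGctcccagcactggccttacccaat
H2-DMb1 (chr17:34153041-34153160, plus strand): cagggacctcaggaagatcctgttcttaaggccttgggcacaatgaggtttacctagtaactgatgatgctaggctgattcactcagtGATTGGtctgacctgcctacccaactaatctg
H2-DMb2 (chr17:34145099-34145218, plus strand): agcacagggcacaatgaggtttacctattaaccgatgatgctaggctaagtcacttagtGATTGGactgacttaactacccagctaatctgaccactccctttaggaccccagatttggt
H2-Ob (chr17:34238755-34238874, plus strand): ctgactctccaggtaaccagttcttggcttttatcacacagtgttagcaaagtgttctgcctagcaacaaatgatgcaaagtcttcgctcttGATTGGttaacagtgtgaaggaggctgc
B2m (chr2:122147537-122147656, plus strand): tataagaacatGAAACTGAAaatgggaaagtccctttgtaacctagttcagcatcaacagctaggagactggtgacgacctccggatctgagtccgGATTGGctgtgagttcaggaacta
Of the 43 members, 36 had a RefSeq promoter of 300 bases. On either strand GATTGG was present in 28 of them, in all 8 of the class II chain and chaperone genes with a promoter, and in 16.1% of the 32851 promoters of the table. In 7 of these 8 genes it lay on the gene's own strand between 110 and 40 bases before the start, a window chosen after the positions were seen, which held it in 3.67% of all promoters. On that strand the window also held it in B2m, but not in H2-K1 or H2-D1. It did so in 1 of 20 other class I heavy chain genes and in none of Psmb8, Psmb9, Tap1 and Tapbp. B2m is thus not typical of the class I genes. GAAANNGAA was found in 3 of the 36 promoters, those of B2m, H2-T23 and H2-T22, against 8.56% of all promoters. A match describes letters and not binding.

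The class II chains H2-Aa, H2-Ab1 and H2-Eb1 and their chaperone Cd74 separated the cell classes widely. H2-Aa and H2-Ab1 encode the I-A molecule, and H2-Eb1 encodes the I-E beta chain, whose alpha partner C57BL/6 mice lack. Their summed level was 41718 and 42884 CPM in conventional DC type 2 (cDC2)-like cells and 33832 and 41722 CPM in cDC1-like cells. In both libraries B-like cells followed at 20913 and 19508 CPM, monocyte-like cells at 13959 and 15100 CPM, mature dendritic cell (DC)-like cells at 12323 and 11917 CPM, and TAM-like cells at 12147 (12110 to 12184) and 13162 (13128 to 13197) CPM. The mature DC-like level was 1.01-fold that of TAM-like cells in the MWA library (0.977 to 1.05), so these neighbours did not differ beyond counting error there, and 0.905-fold (0.873 to 0.939) in the MWA plus TIGIT library. Monocyte-like cells held 13330 and 14948 CPM of the summed TAM markers, beside 5653 and 5600 CPM of the monocyte markers, so they were not clear of macrophage RNA. Neutrophil-like cells held 3307 and 3037 CPM of class II, beside 5359 and 3003 CPM of the summed TAM markers, whose part in that level was not tested. In T-like and natural killer (NK)-like cells class II lay between 266 and 745 CPM. All DC-like cells together exceeded TAM-like cells 2.57-fold (95% interval, 2.54 to 2.60) in the MWA library and 2.60-fold (2.58 to 2.63) in the MWA plus TIGIT library. Cd74 alone reached 17319 and 18475 CPM in cDC2-like, 5790 and 6467 CPM in TAM-like and 4981 and 5509 CPM in mature DC-like cells. H2-Aa stood at 8259 and 8053 CPM in cDC2-like cells and at 2278 and 2386 CPM in TAM-like cells, with H2-Eb1 at 8259 and 8202 CPM and at 2178 and 2231 CPM in the same classes.

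**Figure D1:**
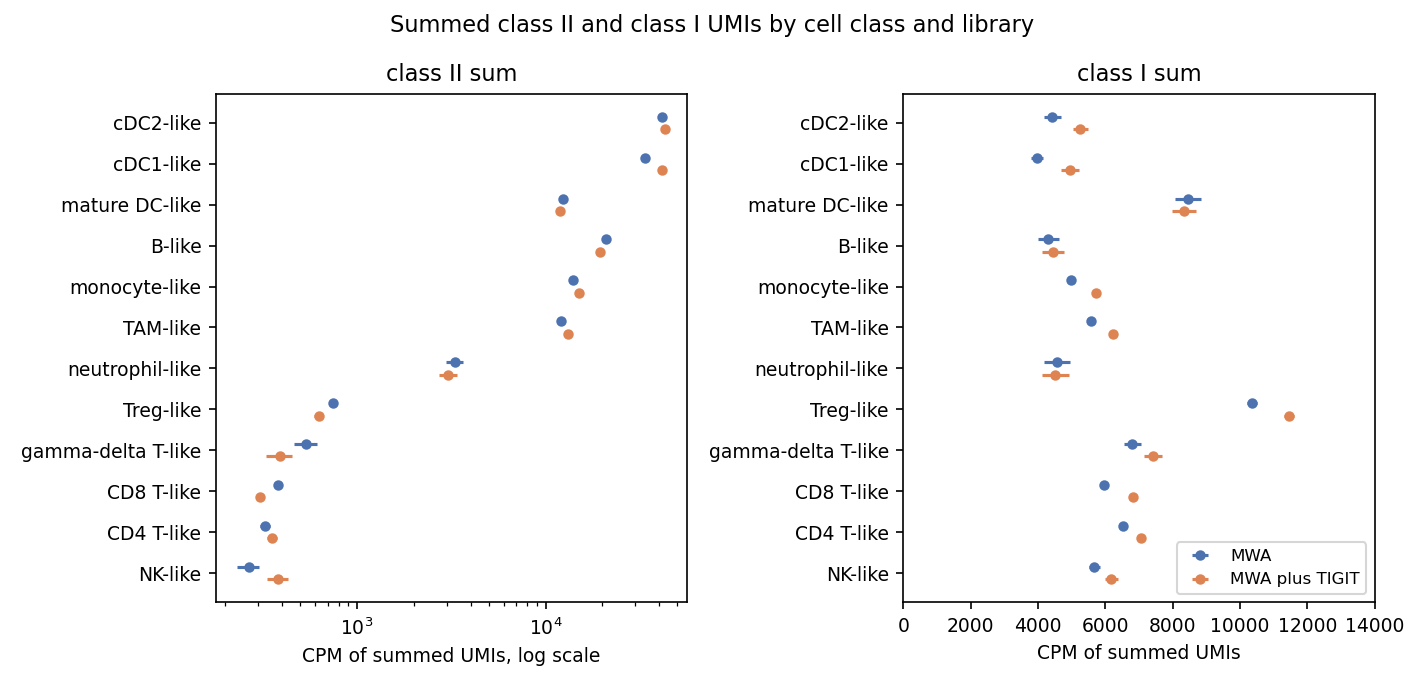
Summed class II (H2-Aa, H2-Ab1, H2-Eb1, Cd74; log axis) and class I (H2-K1, H2-D1, B2m; linear axis) levels (CPM) in 12 cell classes, with points for the 2 libraries and bars for the exact Poisson 95% interval (counting error only). Class II spans from 266 CPM in NK-like cells to 42884 CPM in cDC2-like cells, while class I lies between 3971 CPM in cDC1-like and 11457 CPM in Treg-like cells.

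Mature DC-like cells, marked by Ccr7 and Fscn1, carried less class II and more class I RNA than the other DC-like cells. Their class II level was 0.295-fold (0.283 to 0.308) and 0.278-fold (0.267 to 0.289) that of cDC2-like cells, whereas their class I level was 1.91-fold (1.78 to 2.05) and 1.59-fold (1.49 to 1.69). The class II chains did not keep the same proportions. For each UMI of H2-Aa, cDC2-like cells held 0.954 and 1.01 UMIs of H2-Ab1, TAM-like cells 0.834 and 0.871, and mature DC-like cells 0.348 (0.302 to 0.402) and 0.418 (0.362 to 0.481). H2-Eb2, a further beta chain gene, was measured only in mature DC-like cells, at 65.1 and 90.3 CPM, and in B-like cells, at 47.9 and 92.5 CPM. The summed TAM markers stood at 3024 and 857 CPM in the mature DC-like cells, so that more macrophage RNA was counted in this class of the MWA library, and its part in these values was not tested.

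The chaperones of class II differed by cell type in kind as well as in amount. H2-DM is a pair of H2-DMa with a beta chain from H2-DMb1 or H2-DMb2. H2-DMa was measured at 1042 and 1003 CPM in cDC2-like, 912 and 948 CPM in cDC1-like, 515 and 531 CPM in monocyte-like and 395 and 409 CPM in TAM-like cells. The beta chains split these classes more sharply. TAM-like cells held 0.0344 (0.0308 to 0.0383) and 0.0338 (0.0306 to 0.0371) UMIs of H2-DMb2 per UMI of H2-DMb1, cDC1-like cells 0.327 and 0.251, cDC2-like cells 0.510 and 0.356, and B-like cells 4.95 (3.08 to 8.34) and 3.70 (2.23 to 6.40). In mature DC-like cells the ratio was 2.25 (1.10 to 4.88) and 1.33 (0.592 to 3.09). Of the 50-base words in the 3′ end of H2-DMb1, 20.4% were also found in transcripts of H2-DMb2, and reads from such stretches could be lost or split in counting. The 3′ end of H2-DMb2 shared 3.33% of its words, with Mdc1 and not with H2-DMb1.

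H2-Oa and H2-Ob form H2-O, an inhibitor of H2-DM known from B cells. H2-Ob stood at 581 and 370 CPM in B-like cells, at 109 and 107 CPM in cDC1-like cells and at 91.0 and 83.4 CPM in cDC2-like cells. H2-Oa reached 276 and 296 CPM in B-like, 241 and 190 CPM in cDC2-like and 93.2 and 69.2 CPM in cDC1-like cells. The DC-like cells together exceeded TAM-like cells 78.0-fold (56.5 to 109) and 126-fold (87.4 to 185) in H2-Oa, far more than the 1.99-fold and 1.84-fold for H2-DMa. These folds rest on 55 and 41 UMIs of H2-Oa among all TAM-like cells.

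The transactivators followed separate patterns. Ciita was at 255 and 295 CPM in cDC2-like, 149 and 204 CPM in cDC1-like, 89.9 and 105 CPM in B-like, 64.5 and 59.8 CPM in monocyte-like and 28.5 and 31.6 CPM in TAM-like cells, with the TAM-like value under the 50 CPM limit. In CD8+ T-like cells it was at 2.10 and 1.21 CPM. Nlrc5 was measured in gamma-delta T-like cells at 84.2 and 71.4 CPM, in mature DC-like cells at 78.1 and 61.5 CPM, in Treg-like cells at 73.5 and 73.4 CPM, in CD8+ T-like cells at 60.6 and 62.9 CPM and in CD4+ T-like cells at 60.8 and 60.2 CPM. TAM-like cells held 0.236-fold (0.208 to 0.266) and 0.253-fold (0.227 to 0.283) the level of CD8+ T-like cells. Over 34 clusters in 2 libraries, which gave 68 points that share libraries and depth, the class II sum had a Spearman correlation of 0.84 with Ciita and of −0.47 with Nlrc5, and the class I sum of 0.70 with Nlrc5. These values describe clusters and carry no test. Among 7967 ranked genes, members included, the non-members closest to the class II sum were Cst3, Cd83, Bmp2k, Irf5 and Ctsh, with correlations from 0.86 to 0.90. Gbp7, Rnaset2a, Gbp4 and Ttc39c were among the non-members closest to the class I sum, with 0.70 to 0.74.

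**Figure D2:**
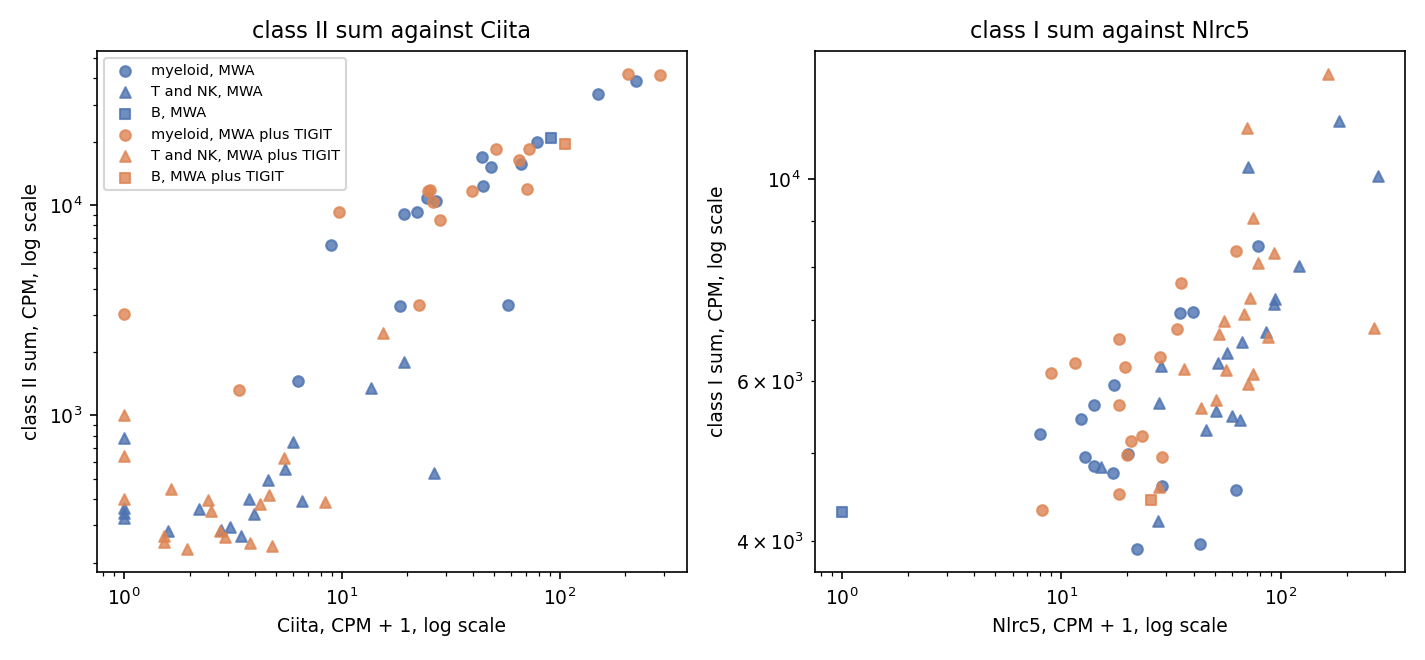
Each point is a cluster in 1 library: the class II sum against Ciita (left) and the class I sum against Nlrc5 (right), in CPM on log axes, with 1 CPM added to the transactivator. Clusters with the most Ciita, the cDC2-like and cDC1-like ones, hold the most class II RNA, and the Spearman correlations are 0.84 (left) and 0.70 (right) over 68 points.

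Class I RNA was spread evenly by comparison. The summed level of H2-K1, H2-D1 and B2m was 5566 and 6239 CPM in TAM-like cells, 5956 and 6813 CPM in CD8+ T-like cells and 6526 and 7047 CPM in CD4+ T-like cells. The lowest value was 3971 CPM in cDC1-like cells of the MWA library, where cDC1-like cells held 0.713-fold (0.682 to 0.746) the TAM-like level. Regulatory T cell (Treg)-like cells held the highest, 10361 and 11457 CPM, which was 1.74-fold (1.71 to 1.77) and 1.68-fold (1.66 to 1.71) that of CD8+ T-like cells. In Treg-like cells H2-K1 alone was at 2838 and 3301 CPM against 1376 and 1684 CPM in CD8+ T-like cells. Their median depth was lower, at 2214 and 2735 UMIs per cell against 4242 and 4056, and its part in this difference was not tested.

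The class Ib genes encode less variable heavy chains with narrower tasks. H2-Q7, a source of the Qa-2 antigen, was at 978 and 1112 CPM in Treg-like, 585 and 772 CPM in CD8+ T-like and 599 and 702 CPM in mature DC-like cells, but at 91.1 and 110 CPM in TAM-like cells. H2-T23, the heavy chain of Qa-1 that is recognised by NK receptors, was at 452 and 501 CPM in Treg-like, 247 and 296 CPM in CD8+ T-like and 173 and 199 CPM in TAM-like cells. H2-T22, a ligand of some gamma-delta T cell receptors, reached 231 and 246 CPM in Treg-like and 58.9 and 66.0 CPM in TAM-like cells, and H2-M3, which presents formylated peptides, was highest in cDC2-like cells at 101 and 99.0 CPM. H2-Q10 was measured in neutrophil-like cells alone, at 193 and 155 CPM. Of the 22 class Ib members, 7 were measured, 7 more had UMIs below the limit, at most 219 in a library, and 8 of the H2-M series had no UMI in either library. The 3′ ends of H2-T22, H2-Ke6, H2-T23, H2-Q6 and H2-Q4 share 59.2%, 51.7%, 14.4%, 13.5% and 9.98% of their 50-base words with other genes, so that their counts are uncertain. H2-Ke6, named for its place among the H2 genes, encodes a steroid dehydrogenase and was measured in 3 lymphocyte classes, at 37.0 to 73.8 CPM over all T-like and NK-like classes.

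All 5 peptide supply genes were measured in each of the cDC1-like, cDC2-like and mature DC-like classes, in the T-like classes and in NK-like cells. Psmb8 was highest in mature DC-like cells, at 1180 and 1460 CPM, and stood at 520 and 558 CPM in TAM-like cells. Psmb9 reached 577 and 730 CPM in cDC1-like cells, which are known for cross-presentation, against 262 and 357 CPM in cDC2-like and 196 and 207 CPM in TAM-like cells. Tap1 in cDC1-like cells was at 194 and 356 CPM, or 2.71-fold (2.19 to 3.32) and 4.61-fold (3.75 to 5.61) the TAM-like level. Tap2 was highest in Treg-like cells at 144 and 136 CPM, and Tapbp in mature DC-like cells of the MWA library at 343 CPM.

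**Figure D3:**
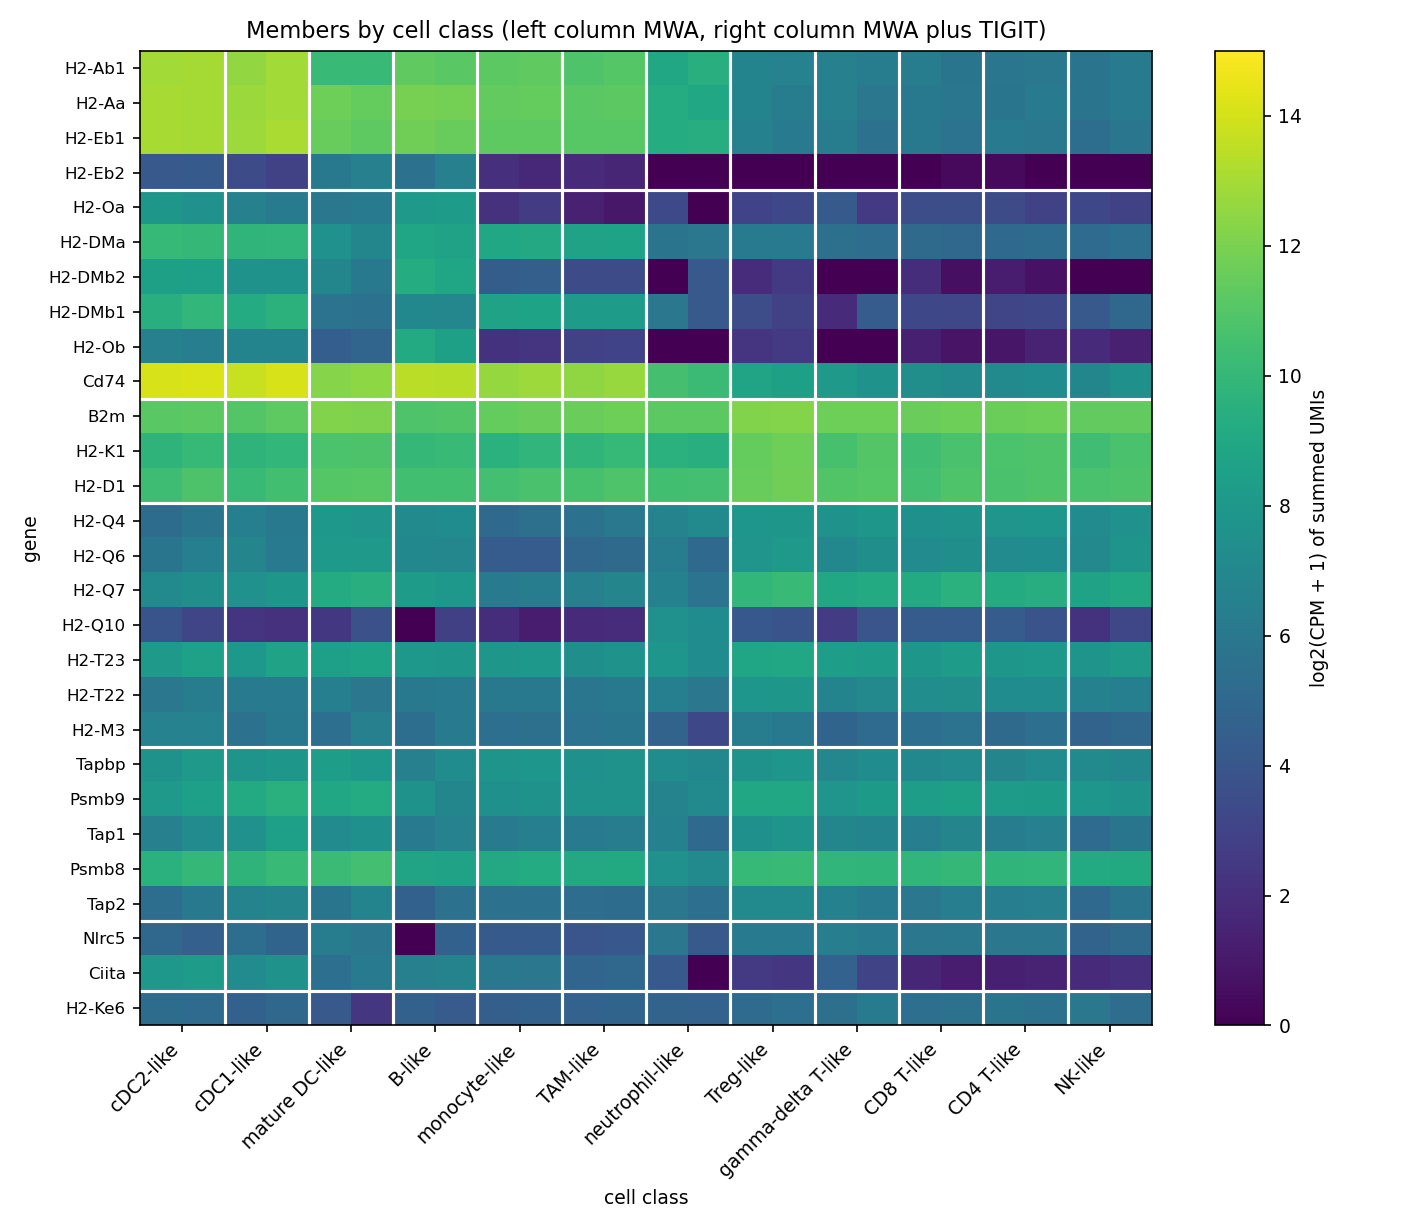
log2(CPM + 1) of summed UMIs for the 28 measured members (grouped from top to bottom as class II chains, class II chaperones, class Ia with B2m, class Ib, peptide supply, transactivators and H2-Ke6) in 12 cell classes, with the MWA library left and the MWA plus TIGIT library right in each pair. H2-DMb2, H2-Oa and H2-Ob are bright in B-like and conventional DC-like cells and dark in TAM-like cells. The rows of H2-K1, H2-D1 and B2m vary less from left to right, while class Ib rows such as H2-Q7 differ between classes.

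TAM-like cells were far from uniform in class II. After each cell was thinned to 1000 UMIs, which left out 11 and 3 shallower cells, the median was 5 and 7 class II UMIs per cell, the lower quartile 1 and 1 and the upper quartile 19 and 21. In the MWA library 772 of 3716 TAM-like cells (20.8%) held none, and 488 cells held 32 to 63, a range that includes the cDC2-like median of 46. In the MWA plus TIGIT library 640 of 3832 cells (16.7%) held none. B-like cells, in contrast, had a median of 21 and quartiles of 17 and 25 in the MWA library.

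**Figure D4:**
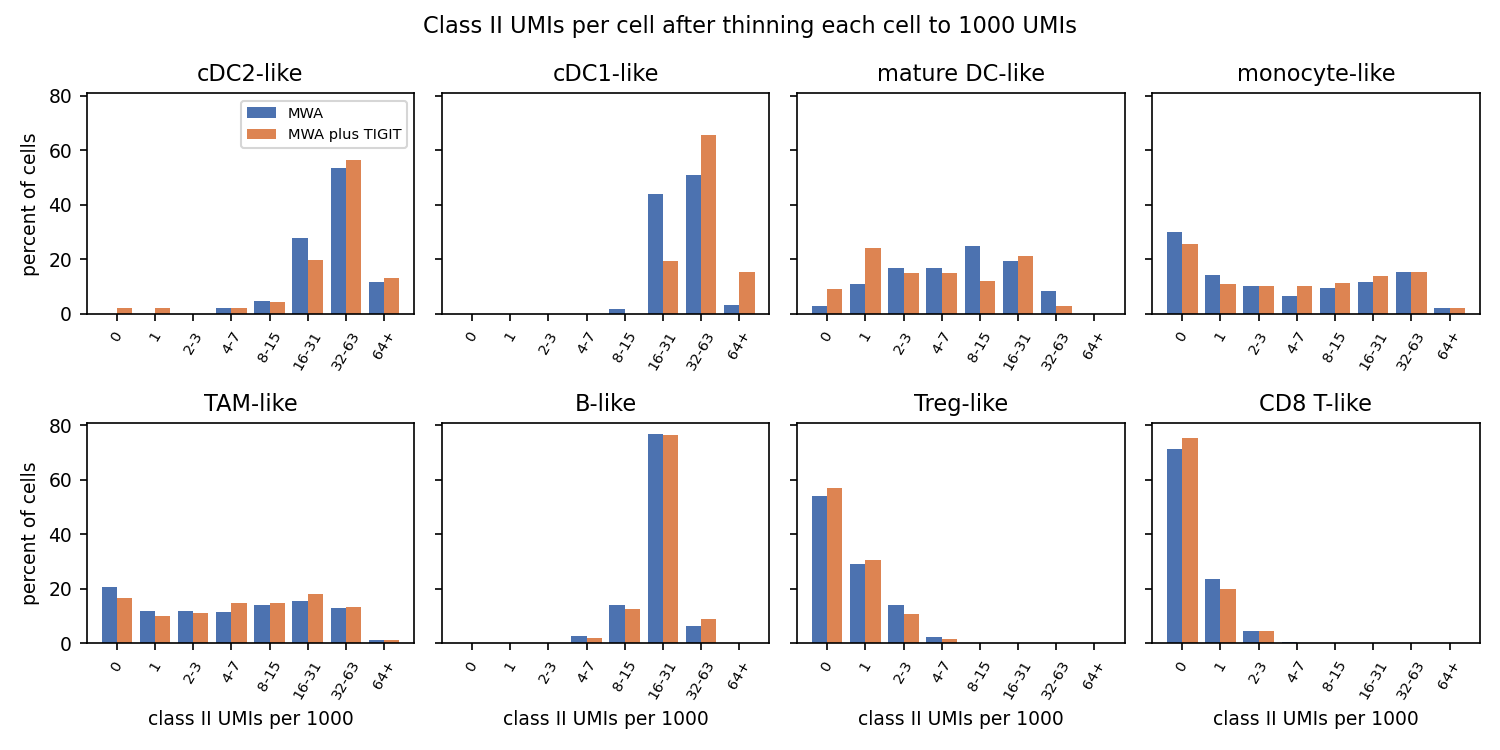
Percent of cells (vertical axis) by class II UMIs per cell after thinning to 1000 UMIs (horizontal axis) in 8 cell classes and both libraries. TAM-like and monocyte-like cells spread over the whole range with 20.8% and 29.9% of the MWA cells at 0, whereas cDC-like and B-like cells gather at high counts and CD8+ T-like cells at 0.

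To describe this range, TAM-like cells with at least 20 thinned class II UMIs (923 and 1046 cells) were set beside those with at most 1 (1212 and 1019 cells), bounds chosen after the values were seen, which cut a continuum and name no type. Between 16 and 31 UMIs, the range that holds the upper bound, there were 580 and 700 cells. Median depths were 8425 and 8892 UMIs in the MWA library and 10565 and 11301 in the other. Among the members not used for the split, Ciita was at 81.0 against 1.94 CPM in the MWA library (log2 ratio 5.38, 4.77 to 6.07) and at 84.7 against 2.10 CPM in the MWA plus TIGIT library (5.33, 4.76 to 5.97). H2-DMb1 (log2 ratio 3.18 and 3.09), H2-DMb2 (2.27 and 1.73) and H2-DMa (1.92 and 1.78) also differed widely, and so did H2-T23, by 0.92 and 0.73. The class I genes differed little, with log2 ratios of 0.41 and 0.23 for H2-K1, 0.33 and 0.19 for H2-D1 and 0.19 and 0.17 for B2m, and the Nlrc5 interval reached 0 in both libraries. H2-Q6 differed by 0.70 in the MWA and by 0.13 in the MWA plus TIGIT library.

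Outside the members, the genes with the largest ratio toward class II-high TAM-like cells, ranked in the MWA library, were Mgl2, Itgax, Cxcl9, Plbd1, C3, AW112010, Ccl5, Napsa, Ly6a and Acp5. Cxcl9, a chemokine that draws CXCR3-bearing T cells, was at 622 against 113 CPM in the MWA library and 857 against 198 CPM in the other. The genes with the largest ratio toward class II-low cells were F13a1, Ctla2a, Mt2, Spp1, Fcrls, Hmox1, Pmp22, Pf4, Hspb1 and Rsad2, with Spp1, the gene of osteopontin, at 217 against 738 CPM and 283 against 841 CPM. The macrophage marker C1qa was present in both sets, at 5709 and 4957 CPM in the MWA library. The 7 cDC2 markers summed to 130 against 16.3 CPM and 121 against 19.9 CPM, compared with 1560 and 1631 CPM in cDC2-like cells. Of the 7, 6 were higher in the class II-high set in both libraries. Most of the sum in that set came from Mgl2 (63.1 and 53.1 CPM) and Itgax (56.6 and 61.2 CPM), both ranked above. Cd209a was at 0.989 and 0.174 CPM there, Flt3 at 0.866 and 0.174 CPM and Clec10a at 7.67 and 5.58 CPM. The part of dendritic cells or of doublets in the class II-high set was not tested. The interferon-induced list stood the other way, at 200 against 284 CPM and 194 against 457 CPM.

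**Figure D5:**
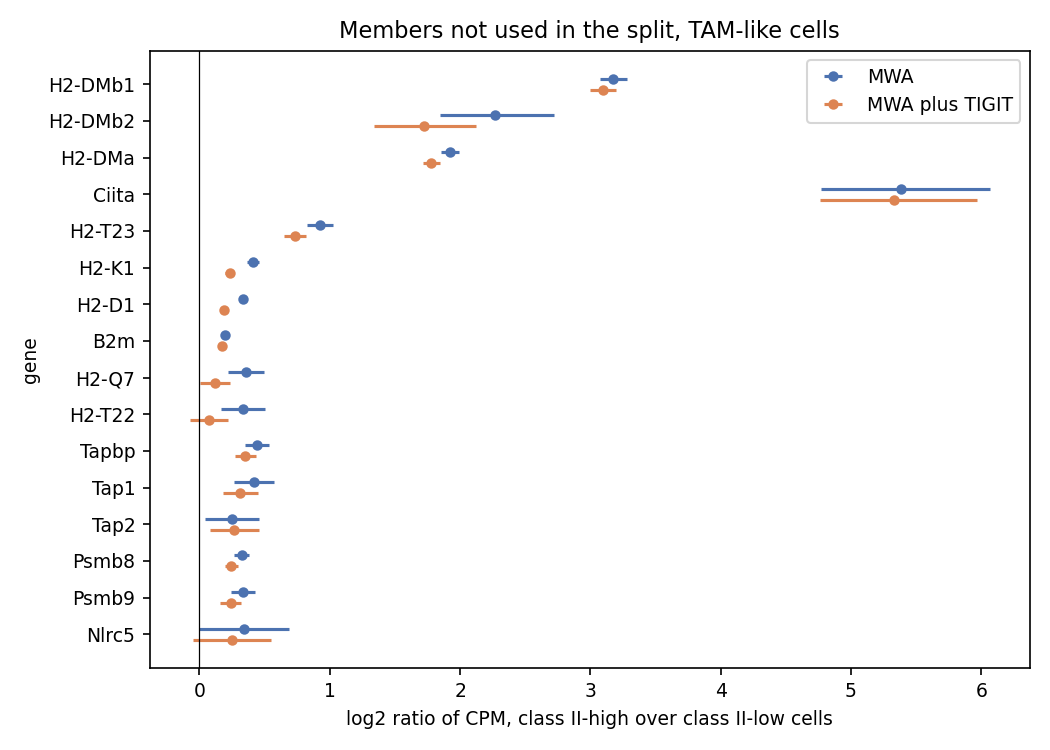
log2 ratio of CPM (horizontal axis) between TAM-like cells with at least 20 and with at most 1 class II UMIs per 1000, for 16 of the members that were not used to make the split, in both libraries, with exact 95% intervals of counting error. Ciita lies above 5, the H2-DM genes between 1.73 and 3.18, and the class I and peptide supply genes below 0.50 except H2-T23 at 0.92 and 0.73.

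The spread in part followed the TAM-like clusters. The cluster led by Ccl8 and Selenop, with Mrc1 among its leading genes, held 16993 and 18485 CPM of class II and had 38.4% and 40.7% of its cells at 20 or more. Over all TAM-like clusters, however, Mrc1 was lower in the class II-high set, at 220.1 against 264 CPM and 235.5 against 315.5 CPM (log2 ratio −0.26 and −0.42). The cluster led by Slc7a2, Ltc4s and Arg1 held 10846 and 11829 CPM. The cluster led by Hspb1 and Mmp12, with heat-shock and hypoxia-related genes, held 6440 and 9213 CPM, the lowest TAM-like value of the MWA library, with 9.08% and 16.6% of cells at 20 or more. The 3 clusters led by cell-cycle genes held from 8464 to 11647 CPM, and 1 of them was the lowest of the MWA plus TIGIT library. Monocyte-like cells divided further, with 15593 and 16302 CPM in the cluster led by Chil3 and Ccl24 and 3347 and 3351 CPM in the cluster led by Hp and Ifitm6. The former (570 and 677 cells) was named by a narrow margin. Its mean marker level, relative to the highest cluster, was 0.324 for the monocyte list and 0.319 for the TAM list. The latter (116 and 105 cells) reached 0.790 for the monocyte list. Most of the monocyte-like class thus lay between monocytes and macrophages in its markers. Clusters were formed without the members, but genes that vary with them were among the features.

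In T-like and NK-like cells the class II UMIs were few, and UMIs of macrophage genes were counted in the same cells. After thinning, H2-Aa was found in 6.11% and 6.02% of CD8+ T-like cells and C1qa, a macrophage gene that T cells lack, in 10.8% and 10.75%, at median depths of 4242 and 4056 UMIs before thinning. In TAM-like cells the thinned shares were 54.2% and 57.4% for H2-Aa and 94.3% and 94.7% for C1qa. The unthinned shares were 22.9% and 23.1% for H2-Aa and 37.5% and 37.3% for C1qa. CD8+ T-like cells held 0.234 (0.214 to 0.255) and 0.203 (0.186 to 0.222) UMIs of H2-Aa per UMI of the 3 C1q genes, more than the 0.157 (0.156 to 0.158) and 0.152 (0.151 to 0.153) of TAM-like cells and less than the 0.806 and 0.735 of monocyte-like cells. The source of these UMIs, whether free RNA, doublets or the cells themselves, was not tested. Treg-like cells held 3.98 (3.41 to 4.67) and 4.64 (3.89 to 5.57) UMIs of Cd74 per UMI of H2-Aa. This was more than the 2.54 and 2.34 of CD8+ T-like and the 2.54 and 2.71 of TAM-like cells. Gamma-delta T-like cells held 2.94 and 3.28, on 36 and 25 UMIs of H2-Aa, with intervals that overlapped those of Treg-like cells in both libraries. The excess of Cd74 was thus not shown to be particular to Treg-like cells. Cd74 in Treg-like cells was at 433 and 370 CPM, and after thinning it was found in 31.2% and 26.1% of them, beside 15.4% and 16.6% for C1qa. In gamma-delta T-like cells the thinned shares were 19.3% and 24.6% for Cd74, beside 9.24% and 13.2% for C1qa. Class II in CD8+ T-like cells also hung on single cells. In CD8+ T-like cells 3 cells of the MWA library held 556 of its 3608 class II UMIs, and without cells of at least 50 class II UMIs, a limit set after seeing the data, the log2 ratio of the libraries went from −0.32 to −0.11. In the CD8+ T-like cluster led by histone genes, 2 MWA cells held 457 of 994 class II UMIs, and the log2 ratio went from −1.05 to −0.17 without them. No Treg-like, gamma-delta T-like or NK-like cell reached the limit of 50. In CD4+ T-like cells 1 cell of the MWA plus TIGIT library did, with 80 of its 1055 class II UMIs.

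Between the libraries, no measured member differed by 1.5-fold or more in TAM-like, monocyte-like, all DC-like or CD8+ T-like cells. In TAM-like cells this was 0 of 18 members, where 0.314% of all measured genes were higher and 0.157% lower in the MWA plus TIGIT library by that much. In monocyte-like cells it was 0 of 17 (0.0801% of all genes higher and 0.401% lower), in all DC-like cells 0 of 24 (7.39% and 2.79%) and in CD8+ T-like cells 0 of 19 (0.89% and 0.382%). The differences below that size leaned toward the MWA plus TIGIT library, as did those of all genes to a smaller degree. In TAM-like cells all 18 measured members had a log2 ratio above 0, from 0.02 to 0.35 with a median of 0.12, beside a median of 0.04 over 2549 genes. Scaling by trimmed means of the genes in place of total UMIs shifted every ratio there by −0.0365. That is more than the lowest ratios of a class II chaperone (0.021) and a class II chain (0.034), which thus fell below 0. In DC-like cells 19 of 24 were above 0 with a median of 0.19, beside 0.10 over all genes.

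Class I summed to a log2 ratio of 0.16 (0.16 to 0.17) in TAM-like cells, 0.23 in DC-like cells and 0.19 in CD8+ T-like cells. Class I in the DC-like classes was at 0.32 in cDC1-like, 0.25 in cDC2-like and −0.02 in mature DC-like cells. CD8+ T-like cells lay in different clusters in the libraries, with 367 and 595 cells in the one led by Trav16 and Gzmk, 138 and 230 in the one led by Gzma and Ccl5 and 340 and 205 in the one led by Cd8b1 and Klk8. Class I within these clusters was at 7298 and 8303, 7379 and 8088, and 5435 and 6104 CPM, with log2 ratios of 0.19, 0.13 and 0.17. In CD8+ T-like cells the median of all genes was itself 0.13, scaling by trimmed means of the genes (TMM) in place of total UMIs shifted every ratio there by −0.12, and the class I value became 0.07. Under that scaling B2m went from 0.07 to −0.05 in CD8+ T-like cells, Psmb9 from 0.08 to −0.04 and H2-T22 from 0.09 to −0.03, while H2-K1 went from 0.29 to 0.17 and H2-D1 from 0.34 to 0.22. In TAM-like cells H2-D1 was at 1606 and 1881 CPM (log2 ratio 0.23, 0.21 to 0.24), H2-K1 at 906.5 and 1059 CPM (0.22, 0.20 to 0.24) and B2m at 3054 and 3300 CPM (0.11, 0.10 to 0.12). Within TAM-like cells of like depth the class I ratio was 0.07 for cells of at most 5000 UMIs and between 0.21 and 0.24 in the 3 bins above.

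Class II summed to a log2 ratio of 0.12 (0.11 to 0.12) in TAM-like cells, 0.11 in monocyte-like cells and 0.14 in DC-like cells. The DC-like value pools cDC1-like cells at 0.30, cDC2-like cells at 0.04 and mature DC-like cells at −0.05, in unequal numbers, since there were 59 and 26 cDC1-like, 43 and 46 cDC2-like and 37 and 33 mature DC-like cells. Cycling markers in DC-like cells summed to 452 and 111 CPM. The ratios turned with the depth of the cells. In cells of at most 5000 UMIs they were −0.09 in TAM-like, −0.38 in monocyte-like and −0.16 in DC-like cells. The median TAM-like cell held 8687 UMIs in the MWA and 10723 in the MWA plus TIGIT library. In TAM-like cells the class II ratio was 0.14 (0.13 to 0.15) in cells of 5000 to 10000 UMIs, 0.25 (0.24 to 0.26) in those of 10000 to 15000 and 0.32 (0.30 to 0.33) in 247 and 713 cells above. In monocyte-like cells it was −0.03 and 0.01 in the 2 middle bins, which hold most of these cells, and the bin above 15000 UMIs had only 2 MWA cells. In DC-like cells it was 0.04 and 0.09 in the middle bins, and 1.64 in the bin above 15000 UMIs, which had only 3 and 10 cells. The bins were chosen after the data were seen. The monocyte-like ratio was −0.09 when the libraries were clustered without integration, and the DC-like ratio −0.04 when cells were gated by marker UMIs.

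The clusters of TAM-like cells did not share a direction in class II, which was higher in the MWA plus TIGIT library in 5 of the 7 and lower in 2. The largest difference was in the cluster led by Hspb1 and Mmp12, with a log2 ratio of 0.52, where the 2 heat-shock genes Hspa1a and Hspa1b summed to 1213 and 1830 CPM and the C1q genes to 7930 and 9544 CPM. The cluster led by interferon-induced genes such as Rsad2 and Ifit2 went the other way, from 15196 to 11632 CPM, a log2 ratio of −0.39, with C1q at 14309 and 14202 CPM. Its Ciita was at 47.5 and 38.8 CPM and its class I sum at 7129 and 7688 CPM. Heat-shock RNA differed in the same direction as class II in both clusters, at 384 and 201 CPM in the interferon-led one, and its part in these values was not tested.

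In the smaller classes a few members passed 1.5-fold, at shares near those of all measured genes. In cDC1-like cells (59 and 26 cells) Tap1 and H2-T23 were higher and H2-Q6 lower of 24 measured, where 12.7% of all genes were higher and 8.76% lower. The Tap1 log2 ratio there was 0.87 (0.46 to 1.29) and that of H2-T23 0.68 (0.31 to 1.06). In cDC2-like cells Tap1, Tap2 and H2-Q6 were higher of 24 (18.5% of all genes higher, 6.67% lower), with Tap1 at 0.71 (0.01 to 1.44). Summed markers of other myeloid cells were also higher in these cDC2-like cells, at 1791 and 3060 CPM for the TAM list and 1515 and 3007 CPM for the monocyte list, and their part was not tested. In mature DC-like cells Ciita, Tap2 and H2-M3 were higher and H2-DMa and H2-DMb2 lower of 25 (15.8% and 14.1%), with H2-DMa at 195 and 119 CPM. The summed TAM markers in these mature DC-like cells were also lower, at 3024 and 857 CPM, and their part in the H2-DMa value was not tested. In B-like cells Tapbp and H2-Eb2 were higher and Psmb9 and H2-Ob lower of 23 (11.5% and 14.5%). The H2-Ob log2 ratio was −0.65 (−1.14 to −0.17), and the B cell marker Cd79a was at 2577 and 2128 CPM. The 4 plasma cell markers summed to 437 and 2443 CPM in these cells, with 0 and 238 UMIs of Jchain, and their part in the H2-Ob value was not tested.

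Among lymphocytes, 0 of 19 members passed in CD4+ T-like cells (0.714% of all genes higher, 0.446% lower) and 0 of 20 in Treg-like cells (1.29% and 0.539%). In NK-like cells Tap2, H2-Q6 and Cd74 were higher and H2-Ke6 lower of 18 (7.7% and 1.99%), with H2-Q6 at 131 and 215 CPM (log2 ratio 0.71, 0.34 to 1.09) and Cd74 at 115 and 182 CPM (0.65, 0.25 to 1.06). The macrophage gene C1qa was also higher in these NK-like cells, at 74.1 and 109 CPM (0.56, 0.04 to 1.08), and its part in the Cd74 value was not tested. In gamma-delta T-like cells H2-Ke6 was higher and H2-Eb1 lower of 19 (10.3% and 7.12%). In neutrophil-like cells H2-T23 was lower of 13 (13.4% higher, 20% lower). Among all these calls the counting interval of the log2 ratio left out 0 only for Tap1 and H2-T23 in cDC1-like, Tap1 in cDC2-like, H2-DMa in mature DC-like, H2-Ob in B-like and H2-Q6 and Cd74 in NK-like cells.

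Genes that work with the members but are not among them were taken from a list of 38 fixed with the members, such as cathepsins, peptide-loading chaperones and the promoter factors Rfx5 and Nfya. In TAM-like cells 0 of 20 measured passed 1.5-fold, with a median log2 ratio of 0.12. The cysteine protease Ctss, which trims the invariant chain, was at 2420 and 2936 CPM there, and Ifi30, a thiol reductase of class II compartments, at 812 and 900 CPM. In monocyte-like cells 0 of 21 and in CD8+ T-like cells 0 of 17 passed. In DC-like cells 3 of 25 were higher, Tapbpl, Fcgrt and the costimulatory receptor Cd40, and none lower, beside the 7.39% of all genes that were higher there.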

How the data were processed

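CD45+ cells of the non-ablated tumor were sequenced in 1 library per group. The deposited files hold whole-number UMI counts per gene and cell barcode, which the authors made with Cell Ranger on mm10. The file header names version 4.0.0 and the submitters' processing notes name 6.1.1, and the version could not be settled.

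Barcodes with under 200 genes (2 and 12) or over 10% mitochondrial UMIs (179 and 276) were left out, as were 806 and 786 called doublets. The caller, which scores cells against simulated doublets at an assumed 0.8% per 1000 cells, was tested on simulated data and found 63.7% of 400 doublets added to each library. The remaining 9231 and 9127 cells (median 5322 and 6345 UMIs) were integrated and clustered with Seurat 5.3.0 (R 4.3.3, 2000 variable features, 40 principal components) without the members. Classes were named from marker lists, with rules for doubtful clusters set after the clusters were seen, and 576 and 583 cells stayed unnamed. In the cluster split into cDC2-like and plasmacytoid cells by marker UMIs, 13 and 7 cells lay within 2 UMIs of the dividing value.

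UMIs were summed per class and library and divided by the total of the class (CPM), with exact Poisson 95% intervals. Ratios are log2 of MWA plus TIGIT over MWA with exact binomial intervals. A member or gene past 1.5-fold was counted without a test, since each group has 1 library. Cells were thinned to 1000 UMIs where shares or cells were compared. Scaling by TMM used edgeR 4.0.16, and other steps Python 3.11.15, numpy 2.4.6 and scipy 1.17.1. All members measured in a class were eligible to be named, and the 5 genes most like each sum were ranked by correlation, of which 1 is not reported here. The members and lists were chosen with earlier results of these data known. Depth bins, the limit of 50 class II UMIs per cell, the bounds of 20 and 1 UMIs in TAM-like cells and the promoter window were chosen after seeing the data. Alternatives were TMM, equal weight per cell, cells of at most 5000 UMIs, doublets kept, members among the features, no integration, doubled resolutions, marker gates, no CPM minimum and a 2-fold limit.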

Additional observations from a re-analysis of the deposited data

Results flagged for a closer look

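Some members differed between the libraries in opposite directions in different cell classes. These differences between classes were not tested, since each rests on 1 library per group. H2-Ke6, the steroid dehydrogenase gene, whose 3′ end shares 51.7% of its 50-base words with Gm20427, had a log2 ratio of 0.68 in gamma-delta T-like cells and −0.63 in NK-like cells. H2-Q6, a class Ib gene whose 3′ end shares 13.5% of its 50-base words with H2-Q4, stood at −0.61 in cDC1-like, 0.66 in cDC2-like and 0.71 in NK-like cells. H2-T23 stood at −0.61 in neutrophil-like and 0.68 in cDC1-like cells. Of these 7 ratios, the counting interval left out 0 only for H2-Q6 in NK-like cells and H2-T23 in cDC1-like cells.

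Cells that received no class also held member RNA. The cluster led by Ttn, Gm26917, Gabbr1 and Ikzf2 (92 and 72 cells, median 799.5 UMIs) had 1344 and 1007 CPM of class II, beside 1017 and 951 CPM of the C1q genes, and Nlrc5 at 276.3 and 265.7 CPM. The cluster led by Ccr9, Rora, Gzma and Gimap4 (22 and 13 cells) had 1798 and 2472 CPM of class II, beside 1570 and 2429 CPM of the C1q genes. In both clusters macrophage RNA was thus present, and its part in the class II values was not tested.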

How the results depend on the processing

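With 1 library per group, no alternative measures the variation between mice. No paired analysis was possible because each group has 1 library. Of the values of the sums and counts under these alternatives, 52 stayed within the counting interval or the count, 45 moved and 5 changed sign, and the cause was not tested. Class II log2 ratios in TAM-like cells (0.12) were 0.079 with TMM, 0.10 with equal weight per cell, −0.094 in cells of at most 5000 UMIs, 0.17 with doublets kept, 0.13 with members among the features and 0.15 without integration. In monocyte-like cells (0.11) they were, in that order, 0.089, 0.074, −0.38, 0.14, 0.046 and −0.085, and 0.20 with marker gates. In DC-like cells (0.14) they were 0.059 with TMM, 0.078 with equal weight, −0.16 at 5000 UMIs or fewer, 0.16 without integration, 0.10 with doubled resolutions and −0.039 with gates. Class I in TAM-like cells (0.16) was 0.13 with TMM, 0.074 at 5000 UMIs or fewer, 0.18 with doublets and 0.15 with gates, in DC-like cells (0.23) 0.15 with TMM, 0.42 at 5000 or fewer and 0.15 with doubled resolutions, and in CD8+ T-like cells (0.19) 0.073 with TMM and 0.21 at 5000 or fewer. DC-like over TAM-like class II (log2 1.36 and 1.38) was 1.33 and 1.31 with equal weight, 1.32 and 1.26 at 5000 or fewer, 1.51 and 1.47 with doublets, 1.41 and 1.42 without integration, 1.495 and 1.48 with doubled resolutions and 1.24 and 1.08 with gates. Members past 1.5-fold, 0 in each of the 4 groups, became 1 (TAM-like, H2-Oa), 2 (monocyte-like, H2-Q10 and H2-T24), 1 (DC-like, H2-M2) and 4 (CD8+ T-like, Ciita, H2-DMb2, H2-Ob and H2-T24) without a CPM minimum. They became 1 with gates in monocyte-like (H2-Q4) and in DC-like cells (H2-T22), 1 with TMM in CD8+ T-like cells (H2-Ab1), 2 with equal weight in DC-like cells (Tap1 and H2-T23), and at 5000 UMIs or fewer 1 in monocyte-like (Tapbp) and 10 in DC-like cells (36 and 18 cells). The share of all genes past 1.5-fold was not computed under these alternatives, so the counts cannot be read as particular to the members. Among single members, at 5000 UMIs or fewer H2-Ke6 in NK-like cells went to 0.075, Tap2 in NK-like cells to −0.38 and H2-Q6 in cDC1-like cells to 0.54, and the last to 0.15 with gates. Of the other values for single members, 599 stayed and 155 moved.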

Other observations

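Clusters set apart from their class by interferon-induced genes held more class I RNA than that class as a whole. The CD8+ T-like cluster led by Ifi214 and Ifit3 had 8028 and 9056 CPM of class I, beside 5956 and 6813 CPM in all CD8+ T-like cells, and the Treg-like cluster led by Ifit1 (19 and 27 cells) 11574 and 13030 CPM, beside 10361 and 11457 CPM. Nlrc5 in the first was at 120 and 73.8 CPM. The unnamed cluster led by Ctsk, Mmp9 and Acp5, genes of osteoclasts, held little class II RNA, at 1462 and 1317 CPM, at a median of 15639 UMIs per cell, while the unnamed cluster of few UMIs led by Mcpt2 and Cma1 held 19983 and 18478 CPM beside 15540 and 13092 CPM of the C1q genes.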
